A study of Mus musculus with 17 samples.

Results

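The comparison set Ly6C low macrophages of day 4 after muscle injury, the cells of the repair endpoint, against Ly6C high macrophages of day 1, the first inflammatory macrophages in the tissue. Genes with a log2 value of at least 5 in 1 of the 2 columns were compared, which were 12006 of the 38087 genes in the deposited table. All cells came from the tibialis anterior, a shin muscle, of DBA/2J mice, all male and 3 months old. The muscle had been injured with cardiotoxin, a snake venom protein that kills muscle fibres. The labels describe 17 samples in 6 groups, and the 2 groups compared hold 6 of them, 3 Ly6C high samples of day 1 and 3 Ly6C low samples of day 4. Ly6C high and Ly6C low macrophages of day 2, 3 samples each, served only to place the intermediate level of the genes that differed. Neutrophils of day 1 and Ly6C high macrophages of day 4 were not used here. No group was untreated or uninjured, and nothing in the labels says whether samples were separate or pooled mice. DBA/2J mice carry a premature stop codon in Gpnmb and lack complement component C5, so that RNA of Gpnmb does not speak for its protein in this strain.

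After a sterile muscle injury, monocytes with high surface Ly6C leave the blood, enter the tissue and take up dead fibres. They secrete cytokines and chemokines first. Within days they convert to, or are replaced by, macrophages with low Ly6C that clear debris, handle its lipid and iron, and release growth factors for muscle progenitors. The study's title concerns PPARγ, a nuclear receptor for fatty acid derivatives, in macrophage polarization.

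Each group has a single deposited value per gene, taken as its mean on the log2 scale. Values therefore have no replicate error, and it is not known which differences are larger than the spread between mice. Differences are day 4 Ly6C low minus day 1 Ly6C high on the log2 scale, and a gene was counted as higher or lower from 1 upward, which is 2-fold. Where 4 values follow a gene, they are its levels in Ly6C high of day 1, Ly6C high of day 2, Ly6C low of day 2 and Ly6C low of day 4, in that order. Levels are not per length and are compared within a gene only. From the spacing of low values, 1 read was worth 0.586 to 0.632 normalised units in the day 1 libraries and 0.422 to 0.44 in the day 4 libraries. A log2 value of 5 therefore stood for 50.65 to 54.57 reads on day 1 and 72.71 to 75.83 reads on day 4. Total counts per sample cannot be had from these means. Counting error alone gives a difference between levels of 5 and 4 a standard error of 0.178 to 0.189, and one between 10 and 9 a standard error of 0.0315 to 0.0334. The comparison changes the day and the Ly6C gate together, and their parts in a difference cannot be told apart from the 2 end columns. In bulk RNA, fewer cells of a type and less RNA per cell cannot be told apart either.

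Of the 12006 genes, 3143 (26.2%) were at least 2-fold apart. There were 2076 genes (17.3%) higher and 1067 (8.89%) lower in Ly6C low macrophages of day 4. Among the 10429 protein-coding genes 1984 (19.0%) were higher and 878 (8.42%) lower. The median difference over all genes compared was -0.03, and the Pearson correlation of the columns across genes, which are not independent replicates, was 0.843. At least 16-fold apart were 215 genes higher (1.79%) and 59 lower (0.491%). The threshold cuts a continuous range, with 410 genes within 0.1 inside it and 454 within 0.1 outside it. Of the genes compared, 12 were listed at 0 on day 1 and 2 on day 4.

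**Figure D1:**
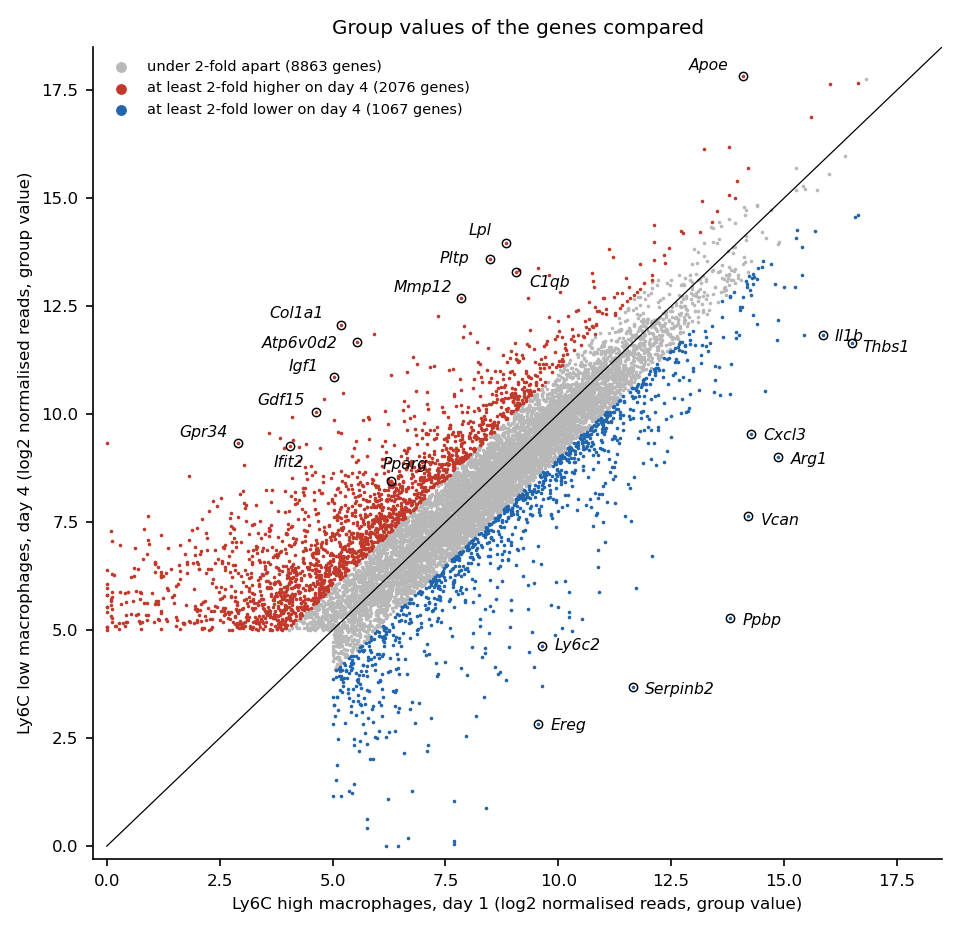
Log2 normalised reads of the 12006 genes compared in Ly6C high macrophages of day 1 (horizontal axis) and Ly6C low macrophages of day 4 (vertical axis), 1 point per gene and no error bars because each group has 1 value. Red points are the 2076 genes at least 2-fold higher on day 4, blue points the 1067 at least 2-fold lower, and the named genes lie far from the diagonal except Pparg, at 6.29 and 8.45.

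The genes that define the sort followed the labels. Ly6c2, the surface antigen of the gate, was at 9.65, 9.87, 6.16 and 4.64, and its close paralog Ly6c1, whose reads the counting may have shared, was at 7.31, 7.67, 3.64 and 3.93. Both lay high in the Ly6C high columns and low in the Ly6C low columns. Macrophage identity genes were present throughout. The growth factor receptor gene Csf1r was at 13.52, 13.52, 13.31 and 14.71, and Emr1, the table's symbol for the gene of F4/80, was at 12.34, 12.51, 13.06 and 13.69. The pan-leukocyte gene Ptprc was at 12.50, 12.44, 11.91 and 13.11, while Itgam, which encodes CD11b, was lower at the endpoint, at 14.80, 14.14, 13.60 and 13.01. Ly6g, the neutrophil surface antigen, was listed at 0 in all 4 columns.

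Of the 4 marker genes given for the comparison, Apoe and Igf1 were higher and Vcan and Cxcl3 lower at the endpoint. Apoe (ENSMUSG00000002985, chromosome 7, 19696109 to 19699188, minus strand, GRCm38), the lipoprotein that carries cholesterol out of macrophages, was at 14.09, 15.38, 16.04 and 17.82, a difference of 3.74 or 13.3-fold. Igf1 (ENSMUSG00000020053, chromosome 10, 87858265 to 87937042, plus strand), the insulin-like growth factor that drives growth of muscle fibres, was at 5.04, 6.90, 9.26 and 10.85, 56.1-fold apart at the ends. Each later column was higher than the one before it for both genes. Vcan (ENSMUSG00000021614, chromosome 13, 89655312 to 89742509, minus strand), a proteoglycan of blood monocytes, was at 14.21, 13.35, 10.22 and 7.64, and its endpoint level was 95.3-fold lower. Cxcl3 (ENSMUSG00000029379, chromosome 5, 90786103 to 90789600, plus strand), a neutrophil-attracting chemokine, was at 14.28, 12.03, 11.21 and 9.54, 26.7-fold lower at the end.

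Inflammatory cytokine and chemokine genes were mostly lower at the endpoint. Of 17 inflammatory cytokine and mediator genes compared, 13 were lower and 1 higher, against 8.89% and 17.3% of all genes, with a median difference of -2.43. Il1b, the inflammasome cytokine, was at 15.85, 14.63, 12.82 and 11.84, so that it lay 16.2-fold lower and still well within the measured range. Ptgs2, which encodes the prostaglandin-forming enzyme COX-2, was at 14.58, 13.14, 11.51 and 10.53. Both genes stepped down from column to column. Lif, a cytokine of the interleukin 6 family, was at 10.24, 7.79, 7.10 and 5.89, and Csf3, the granulocyte growth factor G-CSF, was at 8.93, 7.12, 6.47 and 5.07. Il1a, a relative of Il1b with its own promoter, was at 12.15, 9.54, 9.23 and 8.82, and most of its difference was present in Ly6C high cells by day 2. Il23a, a subunit of interleukin 23, was at 6.75, 4.21, 4.85 and 1.28. Il6 had its lowest value not at the end but in Ly6C low cells of day 2, with 8.24, 6.4, 4.03 and 5.81. Tnf, chosen after its values were seen, lay only 2.19-fold lower, at 12.21, 11.55, 11.69 and 11.07. The exception among the cytokines was Il33, an alarmin of stromal cells, at 4.67, 4.0, 2.56 and 5.73. Its lowest value was in Ly6C low cells of day 2, where the fibroblast markers described further on also lay below Ly6C high cells.

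Of 11 CXC chemokines compared, 6 were lower and 3 higher, against 8.89% and 17.3% of all genes. Ppbp (ENSMUSG00000029372, chromosome 5, 90768518 to 90770063, plus strand), the precursor of neutrophil-activating peptide and the gene with the largest difference downward under the naming rule, was at 13.81, 10.30, 10.32 and 5.27, 371-fold lower. Cxcl5 was at 10.09, 6.78, 6.82 and 5.06, Cxcl2 at 15.40, 14.51, 13.76 and 13.22 and Cxcl1, chosen after its values were seen, at 14.03, 13.09, 13.03 and 12.42. Their products bind the neutrophil receptor CXCR2, and the endpoint levels were the lowest of the 4 columns. The differences spanned -1.61 for Cxcl1 to -8.53 for Ppbp. Pf4, a platelet and macrophage chemokine, was at 14.01, 12.49, 13.41 and 11.82. Higher at the endpoint were Cxcl9, a T cell attractant induced by interferon, at 1.94, 3.55, 1.88 and 6.92, Cxcl10 (chosen after its values were seen) at 6.34, 6.80, 6.27 and 7.87 and Cxcl16, a membrane-bound chemokine and scavenger receptor, at 11.02, 10.87, 11.07 and 12.70.

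The neutrophil attractants Cxcl1, Cxcl2 and Cxcl3 lie side by side on chromosome 5, and their promoters show a shared feature. Of 27025 mouse promoters in the RefSeq table (GRCm38.p6, 250 bases before to 50 after the start site), 512 (1.89%) hold GGG and TTTCC with any 2 bases between them, a form of the NF-kB site, on either strand. Of the 13 CXC chemokine genes 10 had a promoter in the table, and the letters were found in 3, those of Cxcl1, Cxcl2 and Cxcl3. Among 14 promoters of the cytokine list 3 held them, those of Il6, Il1rn and Csf1, and among 9 of the CC chemokine list 2 did, those of Ccl9 and Ccl20. Of these genes Csf1 was not called, at 10.09, 10.94, 10.75 and 9.87, and Ccl20 was listed at 0 in all 4 columns, both chosen after their values were seen, so that the letters were not limited to lower genes. The stretches are printed 5′ to 3′ on the gene's strand, with matches to the letters or to their reverse complement in capitals, to show how near the start site they lie. In Cxcl3 the match covers bases 73 to 64 before the start site, in Il6 bases 44 to 35.
Cxcl3, chr5:90785981-90786070, plus strand: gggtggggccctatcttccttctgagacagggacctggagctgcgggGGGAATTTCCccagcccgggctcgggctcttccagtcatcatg
Cxcl1, chr5:90891125-90891214, plus strand: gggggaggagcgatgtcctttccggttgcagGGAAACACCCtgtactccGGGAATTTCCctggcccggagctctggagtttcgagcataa
Cxcl2, chr5:90903779-90903868, plus strand: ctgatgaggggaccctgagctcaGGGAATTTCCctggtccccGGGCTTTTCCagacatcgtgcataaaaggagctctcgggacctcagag
Il6, chr5:30013055-30013094, plus strand: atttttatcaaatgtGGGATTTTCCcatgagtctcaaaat
Ccl9, chr11:83578647-83578686, minus strand: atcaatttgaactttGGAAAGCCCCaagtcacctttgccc
A match is a run of letters and no evidence that a factor bound there in these cells. AP-1 letters (TGANTCA) were in 5 of the 14 cytokine promoters and in 3 of the 10 CXC promoters, against 8.97% of all promoters. None of 20 immediate early gene promoters held either set of letters.

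CC chemokines, which mainly attract monocytes, were lower for 7 of 11 and higher for 3, against 8.89% and 17.3% of all genes. Ccl2, the main ligand of the monocyte receptor CCR2, was at 13.80, 12.56, 12.54 and 10.46, and Ccl7, a second ligand of that receptor, at 13.58, 12.69, 12.88 and 10.44. Ccl6 was at 15.44, 14.41, 14.18 and 11.84 and Ccl9 at 14.84, 14.23, 13.22 and 11.71. The largest share of these differences lay between Ly6C low cells of day 2 and of day 4, with a median step of -1.51 over the list. Ccl24, an eosinophil attractant, was at 11.61, 10.38, 9.22 and 7.53. Ccl8 went the other way, at 9.28, 8.52, 10.96 and 10.96, higher in both Ly6C low columns than in either Ly6C high column. Ccl5 was also higher, at 4.0, 4.76, 2.71 and 6.03. Among chemokine receptors, 4 of 9 were lower and 2 higher. Ccr1 was at 12.05, 11.58, 10.77 and 8.96, Ccr2 at 11.85, 12.08, 11.35 and 10.67 and Cxcr7, the table's symbol for the scavenging receptor ACKR3, at 7.85, 6.24, 5.56 and 4.12. Cx3cr1, the fractalkine receptor of patrolling and resident cells, was at 6.66, 8.60, 9.0 and 10.97, 19.9-fold higher at the endpoint.

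Of 21 genes that restrain inflammatory signalling, 10 were lower and 0 higher, against 8.89% and 17.3% of all genes. The median was -0.92. Irg1, the table's symbol for Acod1, which makes itaconate, was at 10.86, 9.79, 10.18 and 7.71. The decoy receptor Il1r2 was at 9.23, 9.29, 8.71 and 6.91 and the receptor antagonist Il1rn at 15, 14.64, 13.64 and 12.95. Irak3 and Socs3, inhibitors of toll-like receptor and cytokine receptor signalling, were at 9.96, 9.13, 8.44 and 7.98 and 13.32, 12.65, 12.08 and 11.47. In none of these 5 was the endpoint level above any other column. Toll-like receptors themselves were mixed, with 4 of 19 genes higher and 3 lower. The share higher, 21.05%, was near the 17.3% of all genes. Only 2 were higher where a minimum of 5 in both columns or of 7 in 1 was set. The higher genes included some receptors of nucleic acids in endosomes. These were Tlr7 at 9.86, 9.64, 10.13 and 10.97, Tlr8 at 8.79, 8.70, 9.02 and 10.28 and Tlr3 at 2.80, 4.19, 5.28 and 6.5. Tlr9 and Tlr13, also of that kind and chosen after their values were seen, were not among the 4 higher genes. Also higher was Tlr12, a receptor of parasite profilin, at 0.40, 1.0, 1.16 and 5.86. Tlr3 and Tlr12 were under 5 on day 1 and passed the filter only through day 4. Lower were Tlr5, the flagellin receptor, at 8.74, 8.72, 6.98 and 6.13, and the lipopolysaccharide coreceptor Cd14 at 16.56, 16.03, 15 and 14.56. In the plot of levels by column, Plac8, Ifitm6, Cd74, Gbp3, Mcm5, Top2a, Ccnb2, Trem2 and Gdf3 were chosen after their values were seen.

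**Figure D2:**
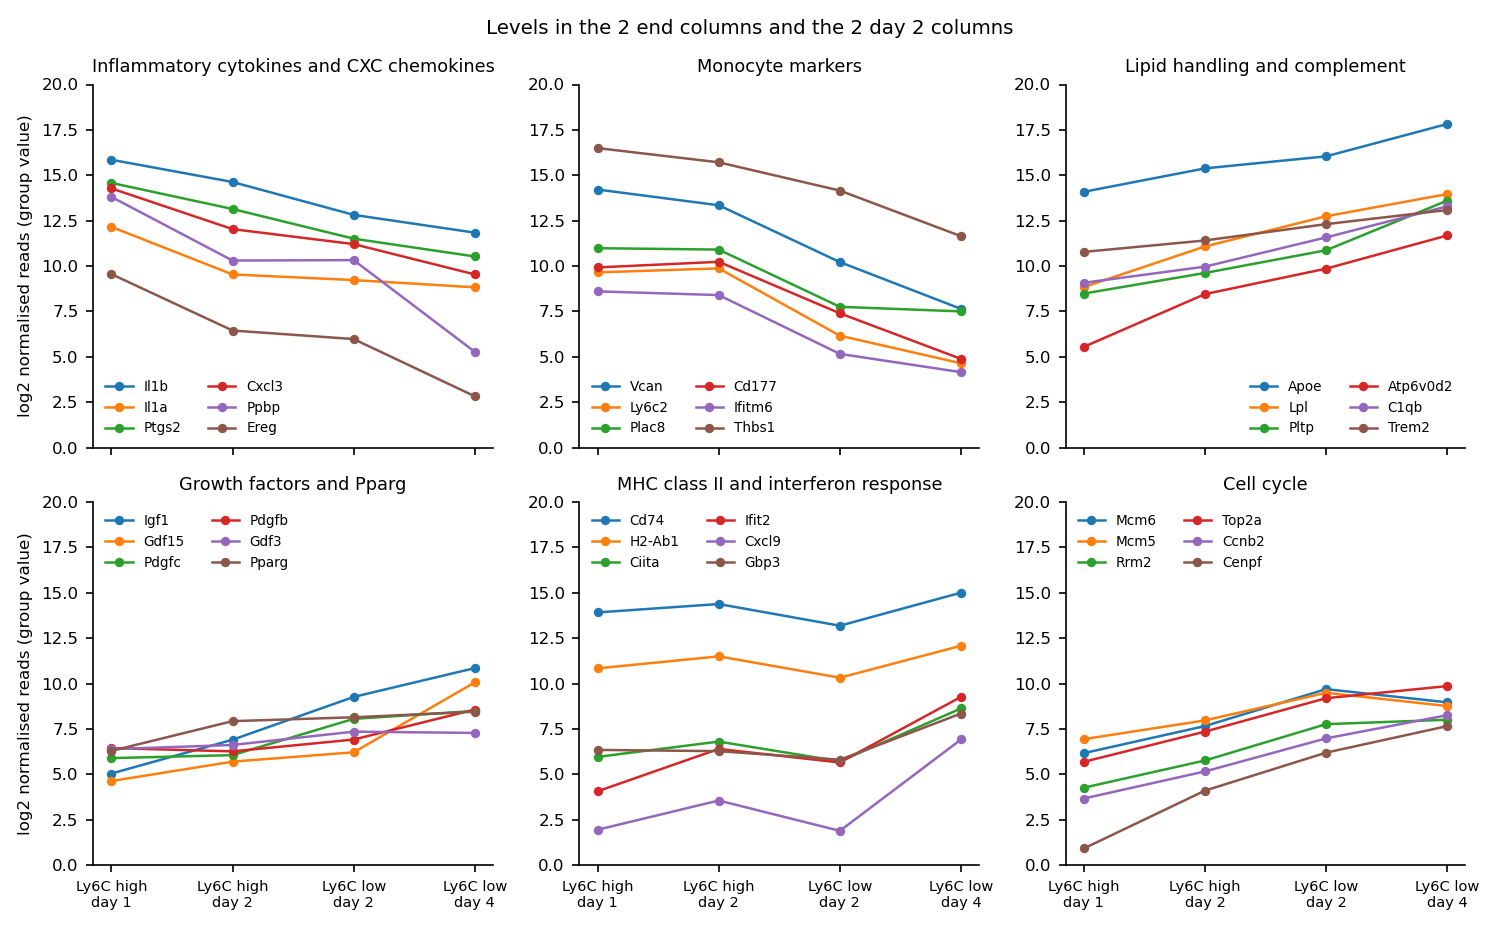
Log2 normalised reads (vertical axes, group value) of 36 genes in 6 panels, in Ly6C high macrophages of days 1 and 2 and Ly6C low macrophages of days 2 and 4 (horizontal axes), with 1 point per gene and column and no error bars. The cytokine and monocyte genes are lowest on day 4, the lipid genes highest there, and the MHC class II and interferon response genes dip in Ly6C low cells of day 2, for example Cd74, the class II invariant chain, from 14.38 to 13.18 and back to 15.01.

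Classical monocyte markers were the list with the largest share of lower members among the 40 pathway lists. Of 18 classical monocyte markers compared, 17 were lower and 1 higher at the endpoint, against 8.89% and 17.3% of all genes. The median was -3.46. Cd177 was at 9.92, 10.23, 7.39 and 4.88 and Chi3l3, the table's symbol for the lectin gene Chil3 with near-identical relatives, at 10.24, 9.36, 8.28 and 5.31. Thbs1, which encodes the matrix protein thrombospondin, was at 16.50, 15.71, 14.15 and 11.64. The step between Ly6C high and Ly6C low cells of day 2 held the largest part, a median of -1.70, against -0.22 between the Ly6C high columns and -1.20 from day 2 to day 4 of Ly6C low cells. The list holds Ly6c1 and Ly6c2, whose product was used for the sort. Mgst1, a microsomal glutathione transferase, was the 1 marker higher, at 7.74, 8.09, 8.73 and 10.18.

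S100 proteins and genes of coagulation, both typical of blood monocytes, were mostly lower. Of 8 S100 genes, 6 were lower and 1 higher, against 8.89% and 17.3% of all genes. The higher one was S100a1, at 6.72, 7.23, 7.42 and 8.86. S100a9, whose product forms the alarmin calprotectin with that of S100a8, was at 9.64, 7.36, 8.97 and 3.71, and S100a8 was at 9.34, 7.59, 7.87 and 5.50. S100a4, S100a6 and S100a11 were at endpoint levels of 11.36, 11 and 8.88 against 13.16, 12.98 and 11.25 on day 1. Neutrophil markers, which share S100a8 and S100a9, were lower for 8 of 9 compared, 4 of which passed the filter only through day 1. The summed normalised reads over all 16 markers were 5387, 3129, 3643 and 2790.2. Of these Ly6g was listed at 0 throughout, and Csf3r, a receptor shared with monocytes and chosen after its values were seen, was at 10.36, 10.29, 10.34 and 10.93. The part of neutrophil RNA in the S100 values was not tested. Among 16 coagulation and fibrinolysis genes, 10 were lower and 1 higher. Serpinb2 (ENSMUSG00000062345, chromosome 1, 107511423 to 107535478, plus strand), an inhibitor of plasminogen activators made by activated monocytes, was at 11.65, 9.30, 7.61 and 3.67, 252-fold lower. F10, clotting factor X, was at 12.34, 11.87, 10.06 and 8.90 and the thrombomodulin gene Thbd at 10.43, 9.35, 8.52 and 8.03. Clotting factor V, F5, was at 8.64, 8.5, 7.33 and 6.97. Serpine2 was the exception, at 3.60, 4.61, 2.46 and 7.31. Platelet markers lay in the same direction, 3 of 3, with summed reads of 30842, 7044, 12197 and 3710.0, most of them of Ppbp and Pf4. Selp was at 5.23, 4.95, 4.18 and 3.70, while Gp6 was listed at 0 in all 4 columns.

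Arginine and polyamine genes, a usual reference point of macrophage polarization, were higher in no case at the endpoint. Arg1, which encodes the enzyme that turns arginine into ornithine, was at 14.86, 12.70, 13.40 and 9.0, 58.2-fold lower at the endpoint. Its highest level was in the first inflammatory cells. Arg2, the mitochondrial enzyme, was at 10.71, 9.65, 8.89 and 8.05 and Ass1, which regenerates arginine, at 8.63, 7.53, 6.37 and 5.72. Slc7a1, the arginine importer, and Srm, spermidine synthase, were at 9.88, 9.92, 9.13 and 8.03 and 8.76, 8.73, 8.85 and 7.51. In all, 8 of 15 genes of the list were lower and 0 higher, against 8.89% and 17.3% of all genes. Nos2, which competes for arginine, stayed under 5 in these columns and was not compared.

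Of the alternative activation markers, which interleukin 4 induces, 9 of 19 compared were lower and 4 higher, against 8.89% and 17.3% of all genes. Beside Arg1 and Chi3l3, Msr1, a scavenger receptor, was at 13.94, 13.53, 13.44 and 11.77 and Pdcd1lg2, a ligand of PD-1, at 5.80, 4.86, 3.78 and 2.97. The mannose receptor gene Mrc1, chosen after its values were seen, was at 14.72, 14.33, 14.53 and 13.48. The higher members included the secreted protein gene Retnla, at 4.05, 1.30, 2.93 and 5.74, and Ccl8, at the levels given above.

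Of 19 heat shock proteins and cochaperones, 10 were lower at the endpoint and 0 higher, against 8.89% and 17.3% of all genes. The median was -1.0. Hsph1, a cochaperone of HSP70, was at 12.22, 10.37, 10.23 and 10.44 and Dnaja1 at 11.43, 10.33, 9.94 and 9.98. Hspa5, the chaperone of the endoplasmic reticulum, was at 15.69, 15.30, 14.74 and 14.25. Hspa1a and Hspa1b, a pair of almost identical genes that may share reads, had their lowest values on day 2, with 14.29, 11.73, 11.54 and 13.14 and 14.40, 11.69, 11.44 and 13.13. The median step between the Ly6C high columns was -0.71, beside -0.22 and 0.02 for the later steps. Across that first step 5 of 19 were at least 2-fold lower and 0 higher, against 1.10% and 2.72% of all genes. The heat shock element (GAA, TTC and GAA, each 2 bases apart, on either strand) was in 4 of 14 promoters of the list, those of Hsph1, Chordc1, Hspd1 and Hspe1, against 0.662% of all promoters. Hspd1 and Hspe1 lie head to head and share the same stretch, counted for both, and both were under 2-fold apart, with differences of -0.95 and -0.56; these and Chordc1 were chosen after their values were seen. Of 25 immediate early genes, which rise during tissue dissociation, 4 were higher and 3 lower, near the shares of all genes. Egr1 was at 10.08, 9.97, 10.18 and 11.80, Atf3 at 11.50, 11.96, 12.47 and 13.14 and Ier3, on the lower side, at 13.83, 13.07, 11.89 and 11.16.

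Glycolysis and hypoxia response genes were lower for 9 of 27 and higher for 1, against 8.89% and 17.3% of all genes. Slc16a3, the lactate exporter, was at 11.87, 12.06, 10.18 and 8.86, Vegfa, the vascular growth factor, at 12.73, 12.26, 10.96 and 10.03 and the oxygen-sensing factor Hif1a at 13.48, 12.98, 12.22 and 11.13. The glucose importer Slc2a1 was at 11.10, 10.95, 9.82 and 9.15 and enolase, Eno1, at 11.83, 11.43, 11.05 and 9.92. These 5 were lower in each Ly6C low column than in the Ly6C high column of day 1. Car9, a hypoxia-induced carbonic anhydrase, lay the other way, at 3.23, 4.39, 5.54 and 5.51. Of 33 genes of the mitochondrial respiratory chain 0 reached 2-fold in either direction, and Atp5b, chosen after its values were seen, was at 13.27, 13.13, 13.15 and 12.66. Likewise 0 of 40 ribosomal protein genes did, and 3 of 29 proteasome genes were lower, Psmc5, Psmd11 and Psma6, with differences from -1.10 to -1.0.

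**Figure D3:**
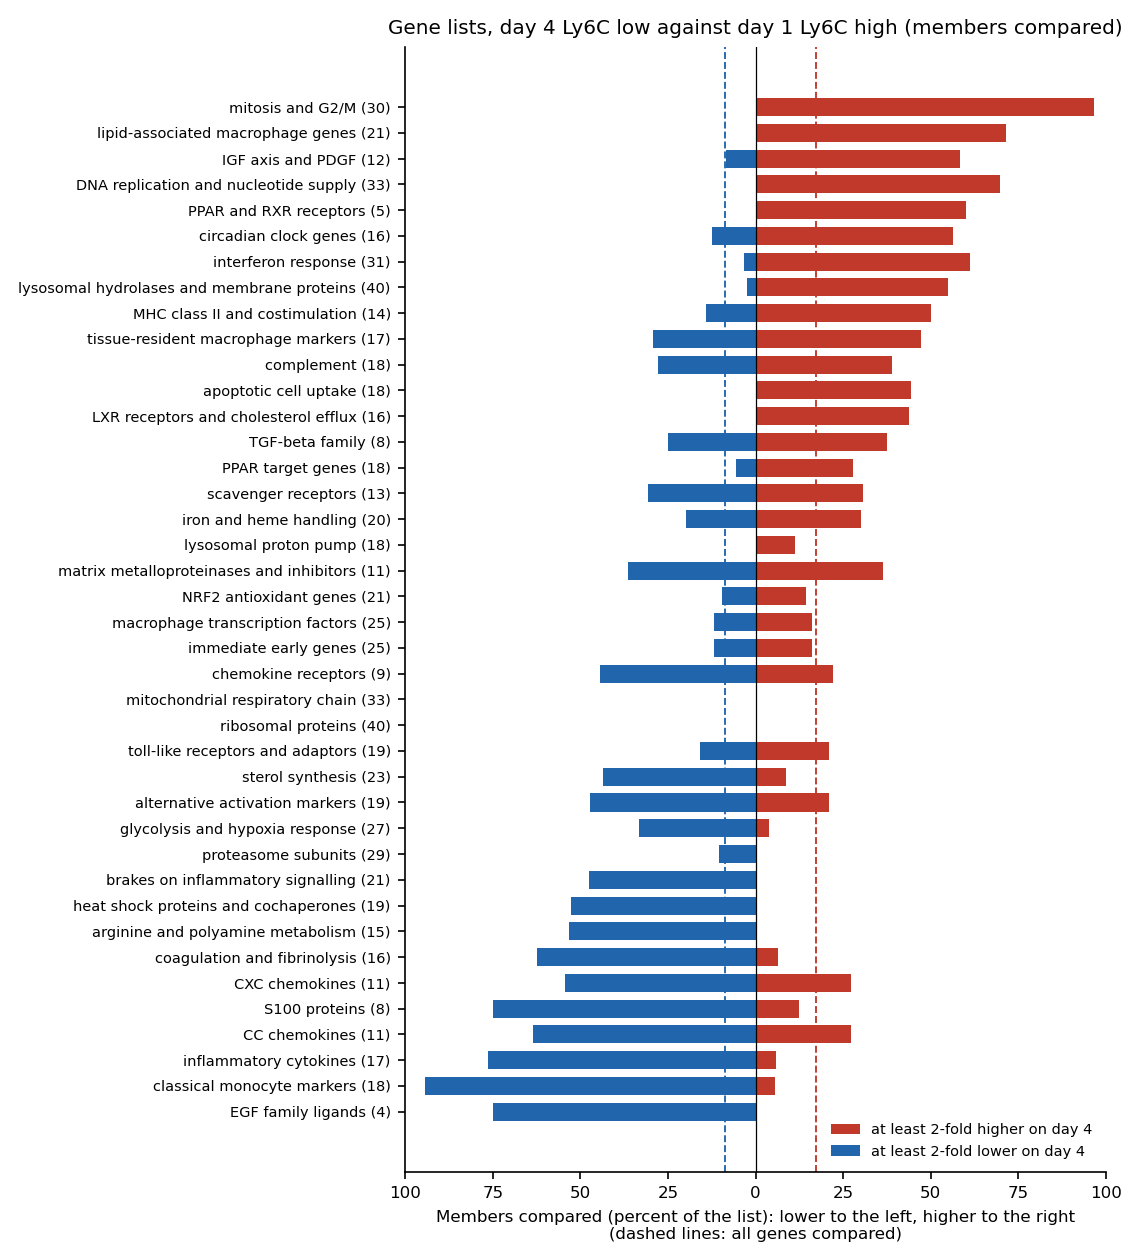
Percent of the members compared of 40 gene lists that were at least 2-fold higher (red, to the right) or lower (blue, to the left) in Ly6C low macrophages of day 4 than in Ly6C high macrophages of day 1, ordered by median difference, with the number compared in brackets. Dashed lines mark all genes compared, 17.3% higher and 8.89% lower; 17 of 18 classical monocyte markers lie to the left and 29 of 30 mitosis genes to the right.

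Ligands of the EGF receptor family, which stimulate epithelial and progenitor cells, were lower for 3 of 4 and higher for 0. Ereg (ENSMUSG00000029377, chromosome 5, 91074622 to 91093646, plus strand) was at 9.55, 6.45, 5.98 and 2.82, 106-fold lower, and Areg, also known as a factor of regulatory T cells in injured muscle, was at 10.91, 9.16, 7.48 and 5.88. Nrg1 was at 7.41, 6.67, 5.58 and 5.18. The levels of Ereg and Areg were lower in each later column. Of the IGF axis and PDGF list 7 of 12 were higher and 1 lower, against 17.3% and 8.89% of all genes. Beside Igf1, Pdgfc was at 5.89, 6.06, 8.05 and 8.49 and Pdgfb at 6.44, 6.26, 6.91 and 8.57, both growth factors for fibroblasts and pericytes. Igfbp4, which binds IGF in the extracellular space, was at 9.21, 9.84, 11 and 11.31, and Igfbp6, which prefers IGF2, was lower, at 8.32, 8.30, 6.82 and 4.39. Igf2 itself was at 3.20, 3.01, 0.44 and 6.33, lowest in Ly6C low cells of day 2.

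In the TGF-β family 3 of 8 genes were higher and 2 lower, against 17.3% and 8.89% of all genes. With a minimum of 5 in both columns 1 was higher. Gdf15, a stress-induced member, was at 4.63, 5.70, 6.21 and 10.06, 43.3-fold higher, with most of the difference after day 2. Bmp2 was at 4.12, 4.52, 6.08 and 6.39, and Ltbp3, which holds latent TGF-β in the matrix, at 7.56, 7.24, 7.53 and 9.52. Gdf3, a repair factor of muscle macrophages that PPARγ is known to control and chosen after its values were seen, was at 6.38, 6.61, 7.35 and 7.28 and did not reach 2-fold. Inhba, the activin A subunit that limits muscle growth, was at 10.53, 8.25, 6.82 and 5.26, and Tgfbi, a matrix protein induced by TGF-β, at 15.24, 15.30, 13.69 and 12.94. Tgfb1 itself, also chosen after its values were seen, was at 12.25, 12.16, 11.60 and 12.25.

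Pparg (ENSMUSG00000000440, chromosome 6, 115360951 to 115490399, plus strand) was at 6.29, 7.93, 8.14 and 8.45, 4.46-fold higher at the endpoint, and its day 2 level in Ly6C high cells was already past the midpoint. Its partner Rxra was at 9.0, 9.44, 9.85 and 10.29 and the coactivator gene Ppargc1b at 2.85, 3.63, 4.47 and 5.14. Of 5 receptor and coactivator genes compared, 3 were higher and 0 lower. PPAR target genes were higher for 5 of 18 and lower for 1. Lpl, lipoprotein lipase, which frees fatty acids from lipoproteins, was at 8.84, 11.08, 12.74 and 13.96, 34.8-fold higher. The lipase inhibitor Angptl4 was at 4.78, 5.62, 5.70 and 8.44. The fatty acid carriers Fabp4 and Fabp5 were at 7.73, 9.19, 10.07 and 9.21 and 10.44, 11.38, 12.50 and 11.82, both highest in Ly6C low cells of day 2. Acadl, an enzyme of fatty acid oxidation, was at 8.13, 8.32, 8.86 and 9.21, and Tgm2, a crosslinking enzyme, was the lower one, at 14.35, 13.94, 13.13 and 13.17. The share of higher PPAR targets, 5 of 18, compares with 17.3% of all genes.

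Genes of the sterol receptors LXR and of cholesterol export were higher for 7 of 16 and lower for 0. Among all genes 17.3% were higher and 8.89% lower. Pltp, which transfers phospholipid between lipoproteins, was at 8.48, 9.62, 10.87 and 13.60, 34.8-fold higher, and Abcg1, a cholesterol exporter, at 8.05, 8.94, 9.89 and 11.89. Mylip, a ubiquitin ligase induced by LXR, was at 7.86, 7.92, 8.37 and 10.21, and Lipa, the lysosomal lipase that frees cholesterol from its esters, at 10.75, 11.36, 12.42 and 13.26. All 4 were highest in the day 4 column. Abca1, the other main exporter, chosen after its values were seen, had its lowest value on day 2, with 13.61, 12.75, 13.04 and 14.36. Sterol synthesis genes were lower for 10 of 23 and higher for 2. Idi1 was at 7.43, 7.82, 6.83 and 5.46, Cyp51 at 8.73, 9.10, 7.89 and 7.16 and Sqle, squalene epoxidase, at 8.06, 8.53, 8.14 and 6.57. The enzymes Idi1, Cyp51 and Sqle were highest in Ly6C high cells of day 2. Dhcr7, at 5.76, 6.87, 7.52 and 7.85, and Lss, at 3.97, 5.12, 5.12 and 5.28, lay in the other direction. The sterol response letters TCACNCCAC were in 1 of 16 promoters of the list, against 1.44% of all.

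Of 21 genes that mark lipid-associated macrophages, 15 were higher and 0 lower, against 17.3% and 8.89% of all genes. The median was 1.89. Atp6v0d2, an isoform of a proton pump subunit typical of macrophages and osteoclasts, was at 5.55, 8.45, 9.85 and 11.68, 70.3-fold higher. Gpnmb was at 8.21, 10.51, 10.91 and 11.67 and Itgax, which encodes CD11c, at 9.33, 9.94, 10.44 and 12.68. The lipid receptor gene Trem2 and the osteopontin gene Spp1, chosen after their values were seen, were at 10.78, 11.41, 12.31 and 13.09 and 13.79, 16.54, 17.72 and 16.18. Spp1 thus peaked in Ly6C low cells of day 2.

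Of 40 lysosomal hydrolases and membrane proteins, 22 were higher and 1 lower, against 17.3% and 8.89% of all genes. A difference above 0 was found for 37 of them. Ctsf, a cathepsin, was at 2.53, 3.22, 4.14 and 8.07, and Ctsk, the collagen-cutting cathepsin of osteoclasts, at 7.09, 8.5, 9.23 and 10.51. Man2b1, a mannosidase, was at 12.13, 12.52, 12.72 and 14.38. Ctsc, which activates granule proteases, was the lower one, at 14.52, 14.17, 13.61 and 13.40. The pump that acidifies the lysosome was different. Only 2 of its 18 genes reached 2-fold, Atp6v0d2 and Atp6v1a, the latter at 12.08, 12.37, 12.85 and 13.10, and the median was 0.16. The letters TCACGTGA, the core of the CLEAR element read by TFEB, were in 4 of 31 promoters of the hydrolase list (Ctsa, Ctsd, Gla and Mcoln1) and in 3 of 12 of the pump list (Atp6v0d1, Atp6v0e and Atp6v1a), against 1.12% of all promoters. Tfeb was at 7.75, 8.14, 8.18 and 9.13.

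Clearance of dead cells uses receptors, bridging proteins and complement. Of 18 uptake genes 8 were higher and 0 lower, against 17.3% and 8.89% of all genes. The receptor tyrosine kinases Axl and Mertk were at 6.78, 7.79, 6.68 and 11.31 and 8.60, 8.98, 9.55 and 11. Their bridging ligand Gas6 was at 9.38, 10.33, 11.94 and 11.94, and Mfge8, which links dying cells to integrins, at 6.56, 7.13, 8.19 and 10.10. Stab2, a receptor of exposed lipids, was at 8.64, 8.85, 9.10 and 10.74. Axl had the largest step after day 2 of these 5 genes, while Gas6 was as high in Ly6C low cells on day 2 as on day 4. In the complement list 7 of 18 were higher and 5 lower, beside the same shares of all genes. The 3 chains of C1q, which tags debris, had near-equal courses, C1qa at 9.55, 10.22, 11.80 and 13.38, C1qb at 9.07, 9.97, 11.58 and 13.29 and C1qc at 9.14, 9.94, 11.59 and 13.33. C1s, a protease of that complex also made by fibroblasts, was at 3.35, 3.60, 1.71 and 6.15. Receptors of the fragment C5a were lower, C5ar1 at 11.99, 11.84, 11.16 and 9.70 and Gpr77, the table's symbol for C5ar2, at 6.41, 6.08, 4.78 and 4.09. Scavenger receptors were split, 4 of 13 higher and 4 lower, with Scarb1, a receptor of high-density lipoprotein, at 9.0, 9.65, 9.46 and 10.30, and Olr1, a receptor of oxidised lipoprotein, at 11.31, 10.88, 10.55 and 9.69.

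Markers of tissue-resident macrophages were higher for 8 of 17 and lower for 5, against 17.3% and 8.89% of all genes. Siglec1, the sialic acid receptor CD169, was at 6.29, 7.86, 9.20 and 10.91 and Sepp1, the table's symbol for selenoprotein P, at 13.22, 13.48, 14.59 and 16.15. Cd5l, a survival factor, and Lyve1, a hyaluronan receptor, were at 3.52, 5.35, 8.44 and 8.24 and 3.26, 6.53, 9.24 and 7.45, both highest in Ly6C low cells of day 2. Fcna, a lectin, was at 3.35, 4.67, 6.2 and 7.25. F13a1 and Pf4 were among the lower ones, with F13a1 at 14.18, 14.21, 14.02 and 12.94. The median step from Ly6C high to Ly6C low on day 2 was 1.25, and 11 of 17 markers were at least 2-fold higher across it, against 4.09% of all genes compared. Of the markers compared 4 were under 5 on day 1, and with a minimum of 5 in both columns 4 were higher, which was no longer the larger direction.

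MHC class II and costimulation genes were higher at the endpoint for 7 of 14 and lower for 2. Among all genes 17.3% were higher and 8.89% lower. Ciita, the master regulator of class II genes, was at 5.96, 6.80, 5.71 and 8.63. Its targets H2-Aa and H2-Ab1 were at 11.06, 11.62, 10.40 and 12.32 and 10.83, 11.50, 10.32 and 12.08. Each was lower in Ly6C low than in Ly6C high cells on day 2 and highest on day 4. The median steps were 0.46, -1.18 and 1.57. Cd40 was at 8.27, 8.18, 8.48 and 9.39, while the costimulatory genes Cd86 and Cd80 were lower at the end, at 12.16, 11.89, 10.65 and 11.08 and 10.81, 10.29, 8.63 and 8.17.

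Among 31 interferon response genes 19 were higher at the endpoint and 1 lower, against 17.3% and 8.89% of all genes. The median difference was 1.26. Of the 31, 6 were under 5 on day 1, among them Ifit2, Ifit3 and Ifi44. These passed the filter only through day 4, so that their direction follows from it. Ifit2, an inhibitor of foreign RNA translation, was at 4.06, 6.4, 5.65 and 9.27, Ifit3 at 4.44, 6.25, 5.68 and 8.5 and Ifi44 at 1.33, 3.13, 1.60 and 5.98. Cmpk2, a nucleotide kinase beside the antiviral gene Rsad2, was at 5.08, 6.18, 5.84 and 7.62. Day 4 was the highest of the 4 columns for each of them. From Ly6C low cells of day 2 to those of day 4, 25 of 31 were at least 2-fold higher and 0 lower, against 9.25% and 2.25% of all genes. Between the 2 columns of day 2, 10 were lower and 0 higher in Ly6C low cells, against 4.80% and 4.09%. Ifitm3 was the exception, lower at the end, at 11.94, 11.95, 10.72 and 10.56. Of 13 markers of dendritic cells, which are rich in class II, 2 were higher and 5 lower, with sums of 4109, 4775, 4297 and 11166 over all 16, most of it on day 4 from Itgax, which the endpoint macrophages share with them. Of their defining genes, chosen after their values were seen, Flt3 was at 5.82, 6.32, 4.66 and 5.53, Xcr1 at 5.93, 5.41, 4.43 and 4.79 and Clec9a at 3.48, 4.42, 2.87 and 3.90. Of the 13 markers 7 had a difference above 0. The part of dendritic cell RNA in the class II values was not tested. Siglech and Spib, of plasmacytoid cells, were at 6.65, 7.03, 3.31 and 3.99 and 6.77, 7.01, 3.23 and 3.34.

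Mitosis genes were the list with the largest share of higher members among the 40 pathway lists. Of 30 genes of mitosis and its approach 29 were higher and 0 lower, against 17.3% and 8.89% of all genes. The median was 4.62. Cenpf, a kinetochore protein, was at 0.91, 4.10, 6.19 and 7.65 and Hmmr, a spindle protein, at 0.83, 4.24, 6.43 and 7.33. Birc5, which encodes survivin, was at 2.36, 5.17, 7.31 and 7.99, the checkpoint kinase Bub1b at 2.26, 4.67, 6.88 and 7.76 and the ubiquitin carrier Ube2c at 2.11, 3.92, 6.52 and 7.56. The order of the columns was the same for these 5 genes, with the day 1 level lowest and the day 4 level highest. As many as 24 of the 30 were under 5 on day 1, and with a minimum of 5 in both columns 5 genes of the list were higher. Genes of DNA replication were higher for 23 of 33 and lower for 0, of which 11 were under 5 on day 1, and with a minimum of 5 in both columns 12 were higher. Mcm6, part of the replicative helicase, was at 6.16, 7.66, 9.69 and 8.96, and its loader-linked partners Mcm10 and Cdc45 were at 2.68, 4.24, 6.28 and 6.56 and 3.71, 4.83, 6.63 and 6.09. Rrm2, a subunit of ribonucleotide reductase, was at 4.26, 5.76, 7.76 and 8.0 and the polymerase gene Pole at 2.84, 4.68, 6.64 and 6.5.

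The steps of the 2 cell cycle lists are given side by side, and their difference was not tested. Replication genes had median steps of 0.54, 1.37 and -0.38, mitosis genes of 1.57, 1.86 and 0.78. From Ly6C low cells of day 2 to those of day 4, 8 of 30 mitosis genes and 0 of 33 replication genes were at least 2-fold higher, against 9.25% of all genes. Between the columns of day 2, 26 and 21 were higher in Ly6C low cells, against 4.09% of all genes. The E2F letters TTTCCCGC were in 6 of 27 promoters of the replication list, those of Mcm3, Mcm7, Cdc6, Gins3, Rfc3 and Pold1, against 1.24% of all promoters.

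Iron and heme genes were mixed, and the list held 6 higher and 4 lower genes of 20, against 17.3% and 8.89% of all genes. Slc40a1, ferroportin, the only known iron exporter, was at 5.43, 5.05, 6.27 and 9.03, and the ferroxidase gene Cp at 4.45, 4.61, 4.86 and 7.63. Trf, transferrin, was at 8.66, 8.69, 8.38 and 10.60, the endosomal reductase Steap3 at 8.83, 9.52, 10.37 and 10.37 and the biliverdin reductase Blvrb at 8.58, 8.63, 9.48 and 9.81. Hp, which encodes the haemoglobin scavenger haptoglobin, was lower, at 10.88, 10.65, 9.06 and 6.85, as was Lcn2, a siderophore binder of neutrophils, at 7.69, 5.93, 3.94 and 0.11. Of 21 antioxidant genes of NRF2 3 were higher and 2 lower, near the shares of all genes. The cystine importer Slc7a11, at 12.41, 10.96, 9.91 and 9.15, and the superoxide dismutase gene Sod2, at 12.34, 11.47, 11.05 and 10.25, were lower. Gpx3, a secreted peroxidase, was higher, at 5.49, 6.23, 6.30 and 9.22, as was catalase, Cat, at 8.83, 9.05, 9.62 and 10.51.

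Matrix enzymes and their inhibitors were divided. Of 11 metalloproteinases and inhibitors 4 were higher and 4 lower, against 17.3% and 8.89% of all genes. With a minimum of 5 in both columns 2 were higher. Mmp12, the macrophage elastase, was at 7.84, 8.36, 10.37 and 12.69, Mmp27 at 4.89, 5.13, 7.35 and 7.94 and the inhibitor Timp2 at 9.79, 11.17, 12.52 and 13.22. Timp1, an inhibitor induced by inflammation, was at 11.48, 10.74, 9.65 and 7.64 and Mmp19 at 14.32, 13.90, 12.96 and 12.29. Mmp2, mostly a stromal enzyme, was at 4.17, 4.72, 2.93 and 7.93, with its lowest value in Ly6C low cells of day 2.

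Of 25 transcription factors of the macrophage lineage 4 were higher and 3 lower, near the 17.3% and 8.89% of all genes. Bhlhe41, a repressor known from self-renewing macrophages, was at 5.04, 7.47, 8.89 and 9.87, and Cebpa at 10.68, 11.13, 11.57 and 11.98. The granulocyte factor Cebpe was at 7.49, 6.45, 5.15 and 4.27 and Id3 at 9.38, 8.53, 7.12 and 7.83. Bhlhe41 also belongs to the clock genes, of which 9 of 16 were higher and 2 lower. The heme receptor Nr1d1, which encodes REV-ERBα, was at 6.52, 6.62, 7.68 and 9.03, Dbp at 4.35, 4.62, 5.22 and 6.58 and Rora at 6.42, 6.82, 6.82 and 8.13. Cry1 and Nfil3, repressors of the clock and of its outputs, were lower, at 8.98, 8.74, 8.17 and 7.82 and 10.93, 10.60, 9.73 and 9.22. The hour at which tissue was taken is not given in the labels, and its part in the clock values was not tested.

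Markers of other cells differed between the ends, and the largest in number was the fibroblast list. Of 20 fibroblast and fibro-adipogenic progenitor markers 17 were higher and 0 lower on day 4, against 17.3% and 8.89% of all genes. Of the 20, 10 were under 5 on day 1, among them Postn. These passed the filter only through day 4, so that their direction follows from it. The summed normalised reads of all 20 were 1345, 2788, 476 and 19264, with no marker listed at 0. Col1a1, which encodes the main chain of type I collagen, was at 5.18, 8.0, 5.68 and 12.07, Col1a2 at 5.92, 8.16, 5.69 and 11.85 and Postn, periostin, at 4.81, 5.95, 3.67 and 10.35. Of the 20 markers 20 were at least 2-fold lower in Ly6C low than in Ly6C high cells on day 2, and 20 at least 2-fold higher on day 4 than in Ly6C low cells of day 2. With a minimum of 5 in both end columns 7 markers were higher. Col1a2 and Postn were lowest in Ly6C low cells of day 2, while Col1a1 was lowest on day 1. Named above, Igf2, C1s, Mmp2, Serpine2, Il33, Ccl5 and Cxcl9 were also lowest in Ly6C low cells of day 2 and highest on day 4. The same held for Axl, Trf, Csf1r, Ciita, H2-Aa and H2-Ab1, among others. The part of fibroblast RNA in the endpoint values of these genes was not tested.

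Of 10 myogenic progenitor markers 6 were compared, and 5 of these were under 5 on day 1. Of 14 muscle fibre markers 5 were compared, and 5 were under 5 on day 1. Markers under 5 on day 1 entered only through day 4, where they are high, so that their direction follows from the filter and their levels are a description. Myog, the factor of differentiating muscle cells, was listed at 0 in the first 3 columns and at 5.98 on day 4. Cdh15, the cadherin of muscle progenitors, was listed at 0 on day 1 and at 6.07 on day 4, and Ttn, titin, was at 2.31, 2.25, 2.29 and 6.43. The sums were 699, 376, 328 and 1493 for progenitors and 69.6, 61.1, 73.3 and 433 for fibres. Pax7 and Myf5 were listed at 0 in the first 3 columns, and Myf6 in all 4. The 4 of 10 mast cell markers compared likewise passed only through day 4, with the proteases Cma1, Mcpt4 and Cpa3 at 2.20, 3.07, 5.21 and 7.26, 0.60, 2.13, 4.62 and 6.26 and 0.53, 1.78, 4.17 and 6.23. Their sum over 10 genes was 54.7, 68.4, 143 and 415, and all 3 proteases lay higher in each later column.

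Of 11 endothelial markers 8 were lower and 2 higher, against 8.89% and 17.3% of all genes, with sums of 1301, 1205, 594 and 913. Of the 11, 6 were under 5 on day 4 and passed the filter only through day 1, so that their direction follows from it. With a minimum of 5 in both columns 2 were lower. Cldn5, a tight junction protein, was at 5.77, 5.57, 2.33 and 3.62 and Esam at 6.26, 6.01, 3.66 and 4.06, while Vwf was higher, at 4.80, 7.01, 7.75 and 8.57. The 4 of 7 erythroid markers compared were globin genes, alike within the alpha and within the beta pair. All were under 5 on day 4 and passed the filter only through day 1. Hbb-b1 was at 5.99, 5.26, 3.08 and 2.51, and Slc4a1 was listed at 0 in all 4 columns. The erythroid sum was 199, 125, 29.0 and 16.9. In the T and NK cell list, with sums of 90.9, 146, 57.4 and 567 over 14 genes, 2 genes were compared, both of them only through day 4. Cd4, which mouse macrophages can also express, was at 4.27, 5.17, 3.98 and 8.92, and Klrk1 at 4.51, 5.06, 3.57 and 5.40. The CD3 genes Cd3e, Cd3d and Cd3g of the T cell receptor complex, chosen after their values were seen, were at 1.58, 2.29, 0.81 and 1.59, at 0.56, 1.46, 0.77 and 0.27 and at 0.62, 1.52, 0.57 and 0.11, and the part of T cell RNA in the Cd4 value was not tested. In the B cell list, with sums of 189, 343, 268 and 1088 over 8 genes, Ighm was at 6.80, 8.0, 7.86 and 9.96 and Cd79b at 3.55, 4.26, 4.44 and 5.99, with Pax5 listed at 0 throughout and Cd22 lower, at 5.81, 5.89, 3.16 and 4.63.

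**Figure D4:**
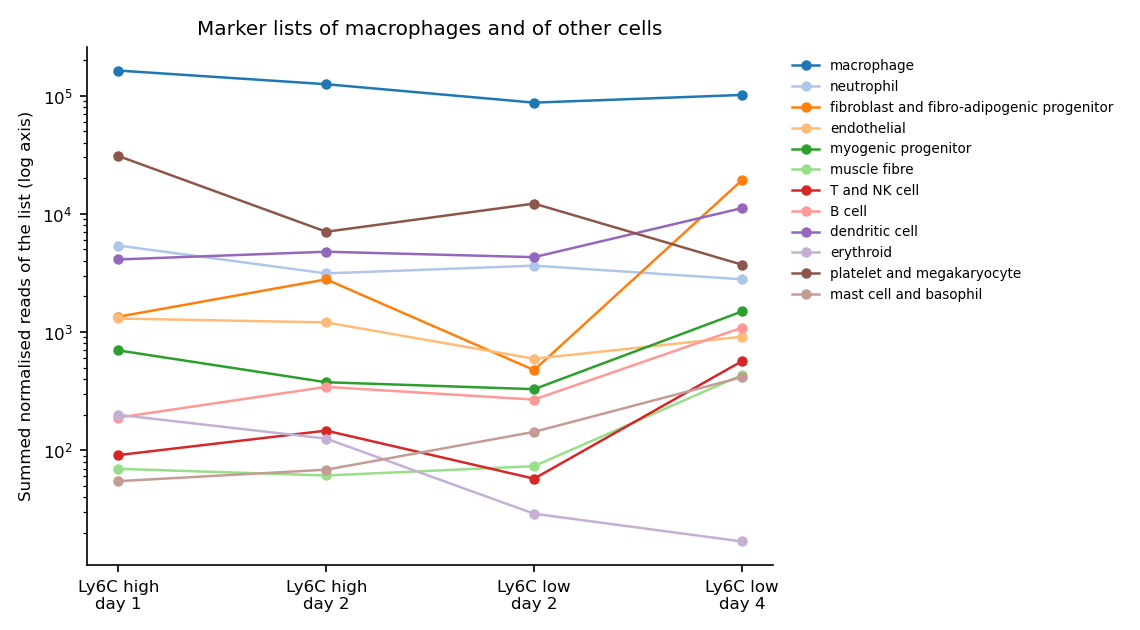
Summed normalised reads (vertical axis, log scale) of 12 marker lists in Ly6C high macrophages of days 1 and 2 and Ly6C low macrophages of days 2 and 4 (horizontal axis), 1 point per list and column and no error bars. The fibroblast sum is 1345 on day 1, 476 in Ly6C low cells of day 2 and 19264 on day 4, while the macrophage sum varies from 87159.8 to 162833.

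The columns of day 2 placed the differences in time and gate. For each gene at least 2-fold apart, the place of a day 2 column is 0 at the day 1 level and 1 at the day 4 level. For the 2076 higher genes the median place was 0.241 in Ly6C high and 0.536 in Ly6C low cells of day 2. For the 1067 lower genes it was 0.203 and 0.6. Ly6C high cells of day 2 thus lay nearer to day 1, and Ly6C low cells of the same day about midway.

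A gene was assigned to the first column in which it had passed a place of 0.5. Of the higher genes, 136 (6.55%) had done so in Ly6C high cells of day 2, 1006 (48.5%) in Ly6C low cells of day 2 and 841 (40.5%) only after day 2. Of the lower genes, 102 (9.56%), 548 (51.4%) and 394 (36.9%) fell in these classes. The rest, 93 higher (4.48%) and 23 lower (2.16%), had a day 2 level at least 1 beyond 1 of the ends. The split rests on where the midpoint is set, and with a place of 0.33 the classes of the higher genes held 29.5% early and 21.3% late.

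The early class held Pparg, Gpnmb, Bhlhe41, Slamf7, a receptor of activated leukocytes, at 5.11, 6.77, 6.24 and 8.26, and Vwf among the higher genes. Among the lower genes it held Il1a, Lif, Cxcl5, Pf4 and Ear11, a ribonuclease, at 8.55, 6.83, 6.53 and 5.45. These lay past the midpoint in Ly6C high cells of day 2. The class does not ask for the level in Ly6C low cells of that day. There Slamf7 and Pf4 lay on the day 1 side of the midpoint. The class that had passed the midpoint in Ly6C low but not in Ly6C high cells of day 2 held Igf1, Gpr34, Adcy3, Cacna1a and Atp6v0d2 on the higher side. It does not require the largest step to lie between the day 2 columns, and for Atp6v0d2 and Ereg that step was the smallest. Gpr34, a lysophosphatidylserine receptor, was at 2.90, 5.34, 7.56 and 9.33, Adcy3, an adenylyl cyclase, at 4.10, 5.53, 8.03 and 9.94 and Cacna1a, a calcium channel, at 3.84, 4.94, 7.24 and 9.46. On the lower side it held Serpinb2, Ereg, Vcan, Slpi, a protease inhibitor, at 11.72, 10.22, 8.47 and 5.98, and Upp1, uridine phosphorylase, at 9.47, 7.91, 6.15 and 4.16.

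The late class held Col1a1, Col1a2, Gdf15, Ephx1, an epoxide hydrolase, at 3.59, 5.51, 5.93 and 9.57, and Gpr155, a lysosomal cholesterol sensor, at 3.04, 4.09, 5.31 and 8.82, among the higher genes. Its lower genes included Ppbp, S100a9, Arg1, Trem1, which amplifies inflammatory signals, at 12.08, 11.30, 9.43 and 6.71, and Ltb4r1, the leukotriene B4 receptor, at 10.29, 10.06, 8.56 and 4.97. Of the 18 called monocyte markers, 10 had passed the midpoint in Ly6C low cells of day 2 and 8 only later. Of the genes outside, 87 higher and 22 lower ones had a level in Ly6C low cells of day 2 below both ends. They included the collagens Col5a1, at 4.13, 5.90, 2.96 and 9.41, Col6a3, at 6.15, 6.94, 4.38 and 10.06, Col6a1 and Col6a2, and, among the lower genes, Hspa1a, Hspa1b and Il6.

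**Figure D5:**
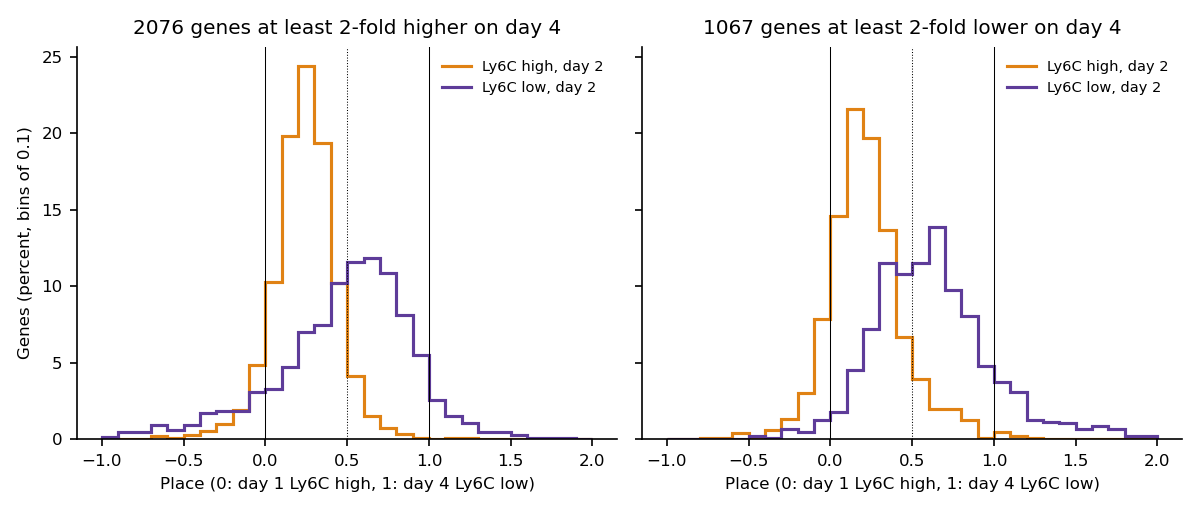
Share of genes (vertical axis, percent in bins of 0.1) by the place of their day 2 level between the day 1 Ly6C high level at 0 and the day 4 Ly6C low level at 1 (horizontal axis), for the 2076 higher genes on the left and the 1067 lower genes on the right. Ly6C high cells of day 2 (orange) peak near 0.2 with medians of 0.241 and 0.203, Ly6C low cells (violet) spread more widely around medians of 0.536 and 0.6, and 5 or 21 higher and 5 or 9 lower genes lie beyond the axis in the Ly6C high or Ly6C low column.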

How the data were processed

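RNA was measured in sorted muscle macrophages by poly-A RNA sequencing, as the labels' protocols say. The genome build mm10 and the tools TopHat2 2.0.7 and Cufflinks 2.0.2 are listed, without their roles, per the submitters' processing notes, while annotation and normalization were not given in the sources used here. Deposited by the authors were log2 normalised reads, 1 column for each of 6 groups, of which 4 were used and 2 were not. Each column was taken as the mean of its group.

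From these, differences, places and medians were computed with Python 3.11.15, pandas 2.3.3 and numpy 2.4.6, and figures with matplotlib 3.10.9. No pseudocount was added. A value near 0 understates a difference because of the floor. With 1 value per group no test, standard error or leaving out of a sample could be run. The scripts were tested on simulated data. The worth of a read came from low values that fall on multiples of a constant within 2e-05 on the log2 scale, 32.81% of low values on day 1 and 25.61% on day 4.

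Members and the 40 gene lists and 13 marker lists were chosen with earlier results of these data known. Genes are named by a rule: 12 fixed genes, the 12 largest differences in each direction among well-expressed protein-coding genes, up to 5 members of a list in its larger direction and 2 in the other, 4 of a marker list and 5 of each day 2 class and direction. Any other gene is said to be chosen after its values were seen. Where a symbol stood on several rows, 3966 rows in all, lists took the one with the highest mean. Of the identifiers, 36308 (95.33%) were found in GENCODE M21, which gave coordinates on GRCm38. Promoters are from RefSeq on GRCm38.p6 and lack some genes. Alternatives were other minimum levels, pseudocounts, rescaling, protein-coding genes alone and other midpoints. A few members of the lists are counted but not reported by name here.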

Additional observations from a re-analysis of the deposited data

How the results depend on the processing

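No paired analysis was possible because the table has 1 value per group, although the labels give the groups the same replicate numbers, and samples could not be left out in turn for the same reason. No value has a replicate error, low levels rest on few reads, and the day and the gate change together. The 1067 lower genes varied from 831 to 1592 over the settings tried. Without a filter 3850 genes were higher and made 70.7% of those 2-fold apart, against 2076 and 66.05%. With a minimum of 7 in 1 column it was 1212 and 59.3%, and with 5 in both columns 1197 and 59%. The share was 68.4% after median-ratio rescaling, 58% after quantile normalization and 69.3% with protein-coding genes alone. Rescaling moved the median of all genes by less than 0.1.

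Without a filter the higher members were 5 of the TGF-β family, 8 PPAR targets, 7 scavenger receptors, 8 matrix enzymes and inhibitors, 8 myogenic and 10 muscle fibre markers and 2 T and NK cell markers, the last no longer with more higher than lower members. With a minimum of 7 the higher members were 13 replication genes, 5 clock genes, 2 toll-like receptor genes (no longer the larger direction), 11 fibroblast markers, 1 myogenic, 0 muscle fibre, 1 B cell and 1 mast cell marker, and the lower members 2 endothelial, 1 dendritic cell and 0 erythroid markers. With 5 in both columns higher was no longer the larger direction for the TGF-β family (1 higher), the resident markers (4 higher), the toll-like receptor genes (2 higher) and the matrix enzymes (2 higher). There the higher members were 12 replication genes, 5 mitosis genes, 7 fibroblast markers, 0 myogenic, muscle fibre, mast cell, T and NK cell markers and 1 B cell marker, and the lower members 2 chemokine receptors, 4 neutrophil, 2 endothelial, 1 dendritic cell and 0 erythroid markers. By construction this setting drops genes that were low on day 1 or day 4. A pseudocount of 8 left 3 lower dendritic cell markers. Quantile normalization gave 4 higher proton pump genes, 6 lower coagulation genes and 1 lower proteasome gene. Protein-coding genes alone left 1 higher B cell marker. For the rest of the shifts the cause was not tested.

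With a place of 0.33 the higher genes were 29.5% early and 21.3% late and the lower genes 25% and 17.2%. With 0.67 they were 1.59% and 61.3%, and 4.03% and 58.1%. On the linear scale they were 1.97% and 60.8%, and 22.1% and 22.9%. Among the lower genes the early share was 5.05% for genes 4-fold apart and 6.25% after quantile normalization, and the share outside was 0.963% with a minimum of 7 and 1.2% under quantile scaling. Of 424 list counts under these alternatives 384 were within 1.5 times the value reported. Differences of named genes were counted as moved in 414 cases and not in 1504. Moved means beyond the counting error or, for genes too low at 1 end to have one, any change. Of the 1504, 258 were without a filter, 207 and 164 with other minimum levels and 257 with protein-coding genes alone, where no difference can change. Under quantile normalization 191 moved and 67 did not, and with a pseudocount of 8 110 and 148. Under median-ratio rescaling 77 moved and 181 did not, and with a pseudocount of 1 36 and 222. The printed folds are thus tied to the scale used, though no sign changed under these alternatives.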

Other observations

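Gene families and neighbouring genes, some of them also in the lists above, were looked at after their values were seen, and the following are descriptions only. Genes that lie side by side differed in the same direction in several places (GRCm38). On chromosome 5, from 90759360 to 91148432, 9 of 11 protein-coding genes were compared and all 9 were at least 2-fold lower on day 4. They are Cxcl5, Ppbp, Pf4, Cxcl3, Cxcl1, Cxcl2, Mthfd2l, Ereg and Areg, so that the run joins neutrophil attractants and EGF receptor ligands across a folate enzyme gene, Mthfd2l, at 6.24, 5.46, 5.68 and 4.99. On chromosome 17, from 48232768 to 48312533, the 4 TREM family genes compared were all lower, Trem1 at the levels given above and Trem3, another activating receptor, at 7.96, 7.53, 5.55 and 2.54. Trem2, the lipid receptor of the same family, is not in this stretch, whose edges were set after the values were seen. It lay in the other direction, with a difference of 2.31. On chromosome 19, from 34492318 to 34650009, 5 of 7 genes were compared and all were higher, among them Lipa, the lysosomal lipase, beside the interferon response genes Ifit1, Ifit2 and Ifit3. On chromosome 6, from 124841089 to 124911705, all 4 genes were higher, with Cd4, Lag3, a checkpoint receptor that binds MHC class II, at 4.62, 6.07, 5.10 and 8.65, Gpr162 at 2.96, 4.24, 4.48 and 8.14 and Leprel2, the table's symbol for a collagen prolyl hydroxylase, at 4.76, 5.64, 5.90 and 8.16. All 4 genes on chromosome 6 were under 5 on day 1 and passed only through day 4, so that their direction follows from the filter. The same holds for Ifit2 and Ifit3. Ereg, Mthfd2l and Trem3 were under 5 on day 4 and passed only through day 1. Overlapping neighbours can share reads where strand is not used in counting, which is not stated for these values.

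Guanylate-binding proteins, interferon gamma targets that attack vacuoles of microbes, were higher for 6 of 6 compared, with a median difference of 1.73, among them Gbp2 at 7.26, 7.18, 6.53 and 9.08 and Gbp6 at 4.52, 3.72, 3.38 and 6.53. Intraflagellar transport genes, known from cilia, were higher in 8 and lower in 0 of 12 cases, with a median of 1.30, for example Ift172 at 6.23, 6.62, 7.20 and 8.25 and Ift122 at 4.07, 4.64, 5.04 and 6.46. Genes with Slc7a symbols, amino acid transporters except Slc7a6os, were lower in 5 of 8 cases and higher in 0, at a median of -1.24. Among the lower ones were Slc7a8 at 13.17, 12.57, 12.49 and 11.61 and Slc7a5 at 8.89, 8.98, 8.4 and 7.87. ABC transporters were higher in 12 and lower in 3 of 31 cases, the latter near the share of all genes. Abca9 at 7.58, 8.62, 9.23 and 11.01 and Abcg3 at 5.67, 6.70, 6.10 and 8.61 were higher. Abcc1, an exporter of leukotriene C4, was lower, at 11.58, 10.86, 10.45 and 9.88. Kinesins were higher in 16 and lower in 0 of 23 cases. Over all genes compared 17.3% were higher and 8.89% lower. Other families looked at were mixed, with 11 higher and 9 lower of 30 Gpr receptors, 6 and 4 of 19 Klr and Clec genes and 1 and 3 of 7 Ms4a genes. Serpin genes were higher in 8 and lower in 1 of 13 cases. Of 21 genes with collagen symbols 18 were higher, 3 of them, Col6a6 at 1.94, 4.24, 6.60 and 6.73, Col14a1 at 5.77, 6.29, 7.09 and 9.03 and Col18a1 at 6.31, 6.54, 7.43 and 8.32, without the dip in Ly6C low cells of day 2 that the fibroblast markers showed. Members of these families under 5 on day 1 entered only through day 4, so that their direction follows from the filter. They include Gbp6 and most of the higher kinesins, intraflagellar transport genes and collagens, among them Ift122 and Col6a6. Processed pseudogenes were lower for 106 and higher for 29 of 1041 compared, against 8.89% and 17.3% of all genes. The long noncoding RNA Neat1 was at 13.56, 13.51, 12.92 and 11.09, and the imprinted RNA H19 at 1.82, 2.13, 0.57 and 8.57, the latter lowest in Ly6C low cells of day 2.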
